A study of Mus musculus with 9 samples.

Results

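Mitosis and spindle genes were followed in embryonic mouse blood (E12.5) with 0, 1 or 2 copies of the Cbfb allele ΔC95. The set was defined by name as 45 genes of mitotic entry, chromosome structure, spindle, checkpoint and cytokinesis. Of these, 44 were measured, among 18193 genes in all, by a probe set that the platform annotation assigns to that gene alone. Where a gene had several such probe sets, the one with the highest mean over the 9 arrays was taken. The remaining gene, Ccnb1, had no probe set of its own and was not analysed here.

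Cbfb encodes the non-DNA-binding subunit of core binding factor, and the study's title is about the C-terminal end of its leukemic fusion with smooth muscle myosin, CBFβ-SMMHC. The labels name the allele ΔC95 without describing it further. Matings between heterozygotes gave 3 groups on a mixed C57BL6/129SvEv background: wild type, written Cbfb+/+, heterozygous, written Cbfb+/ΔC95, and homozygous, written CbfbΔC95/ΔC95, with 3 arrays each. No group was treated. RNA came from peripheral blood pooled from 8 to 10 embryos of a genotype, but nothing states that each of the 3 arrays had a pool of its own. The p-values therefore rest on array-to-array spread alone, possibly technical, and the number of arrays limits the precision.

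A cell enters mitosis when cyclin B activates the kinase CDK1. Condensin then compacts the chromosomes, kinesins and other microtubule-binding proteins build the spindle, and kinetochores attach the chromosomes to it. The spindle checkpoint holds separase in check until all chromosomes are attached, after which the cell divides by cytokinesis. Most cells of the blood at this stage are nucleated primitive red cells, which still divide while they circulate, and most genes described here are transcribed late in the cell cycle.

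Array values are log2, so a difference of 1 is 2-fold. Values are relative within an array, because the arrays were equalized by the authors. Poly-A spike-ins, which follow the RNA through labelling, were higher by 0.88 in heterozygous and by 1.58 in homozygous than in wild-type arrays, and with these set equal all 44 genes would be below wild type in both genotypes. Hybridization controls, which are added after labelling, averaged 10.605 on homozygous arrays, against 10.325 on wild-type and 10.324 on heterozygous ones. The part of either control in the results was not tested. Arrays of a genotype correlated at r = 0.996 to 0.998. Cbfb itself, by its single probe set, was at 6.00, 6.04 and 5.98 in wild-type, 5.73, 5.80 and 5.79 in heterozygous, and 4.93, 5.13 and 5.25 in homozygous arrays. The 3 genotypes did not overlap, though heterozygous arrays lay wholly below wild-type ones for 15.7% of all genes. The homozygous difference of -0.90 passed (adjusted p = 3.39e-06, limma), but the heterozygous one of -0.23 did not (adjusted p = 0.0928). The position of the probe set against the sequence changed in ΔC95 was not analysed here.

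Embryonic erythroid markers identified the tissue, with a summed linear level of 83137 to 83473 in wild-type, 82083 to 83300 in heterozygous and 84133 to 84555 in homozygous arrays (8 of 10 markers measured). Of the 8, 1 rose and 1 fell in homozygous blood. Macrophage markers were lower in homozygous blood in 12 of 12. In heterozygous blood 6 of the 12 were lower, and 3 lay above wild type without passing. The summed macrophage level was 2231 to 2267 in wild-type, 1670 to 1702 in heterozygous and 334 to 340 in homozygous arrays. Megakaryocyte and platelet markers were lower in homozygous blood in 8 of 8 measured, and 1 was higher in heterozygous blood. Their summed levels were 1333 to 1360, 1653 to 1716 and 456 to 511 in the same order. Liver and visceral endoderm markers were higher in homozygous blood in 6 of 6 measured, with summed levels of 566 to 577, 450 to 479 and 961 to 1051. In homozygous blood mesenchyme markers were lower in 5 of 8 (403 to 409, 518 to 547 and 275 to 294), neutrophil markers in 3 of 8 (484 to 530, 325 to 336 and 270 to 281) and stem and progenitor markers in 3 of 8 (328 to 338, 295 to 300 and 269 to 287). In heterozygous blood 4 of 8 neutrophil and 2 of 8 stem and progenitor markers were lower, and 2 of 8 mesenchyme markers were higher. There, 1 of 6 liver and visceral endoderm and 1 of 8 erythroid markers were lower too. Of 8 endothelial markers none passed in either mutant, and of 8 neural markers 1 was higher in homozygous and 2 in heterozygous blood. Over all genes 14.9% were lower and 10.7% higher in homozygous, and 7.04% lower and 4.79% higher in heterozygous blood. No marker was at 0, and the part of these cells in the results below was not tested. In pooled blood, fewer cells of a type and less RNA per cell cannot be told apart.

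Most mitosis genes were lower in blood with the ΔC95 allele, by modest amounts. In homozygous against wild-type blood 27 of 44 fell and 6 rose (limma, adjusted p under 0.05), where 14.9% of all genes fell and 10.7% rose. In heterozygous against wild-type blood 20 fell and 1 rose, where 7.04% of all genes fell and 4.79% rose. The median difference over the 44 genes was -0.25 in homozygous and -0.19 in heterozygous blood, beside medians over all genes of 0.046 and 0.0085. In either direction 25.6% of all genes were called in homozygous and 11.8% in heterozygous blood. The 3 homozygous arrays lay wholly below the wild-type arrays for 29 genes and wholly above for 9, where this held for 18.3% and 20.9% of all genes. For heterozygous arrays it held for 29 and 8 genes, against 15.7% and 14.2%. A called fall of at least 2-fold was seen for 1 of the 44 genes, Smc4 in homozygous blood, where 346 of all 18193 genes had one. By number alone such falls do not set the mitosis genes apart. Both comparisons share the wild-type arrays. Of the 44 genes, 19 were lower in both genotypes, 8 in homozygous blood alone by these calls, and 1, Cdk1, in heterozygous blood alone, though a call in one genotype and not the other is no test of a difference between them.

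By role, all 3 centromere and kinetochore genes and all 3 spindle microtubule-binding proteins fell in homozygous blood, as did 6 of 9 kinesins, whereas none of the 3 chromosomal passenger genes passed the test in either direction. Genes that rose stood beside partners that fell: Racgap1 rose while Kif23 and Ect2 fell, and Ncapd2 and Ncaph rose while Smc2, Smc4 and Ncapg fell. The rises, 6 of 44 in homozygous and 1 of 44 in heterozygous blood, were near or below the 10.7% and 4.79% of all genes. By number alone the rises do not set the mitosis genes apart. These contrasts within a complex were seen after the values were known, and whether the roles differ from each other was not tested.

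**Figure D1:**
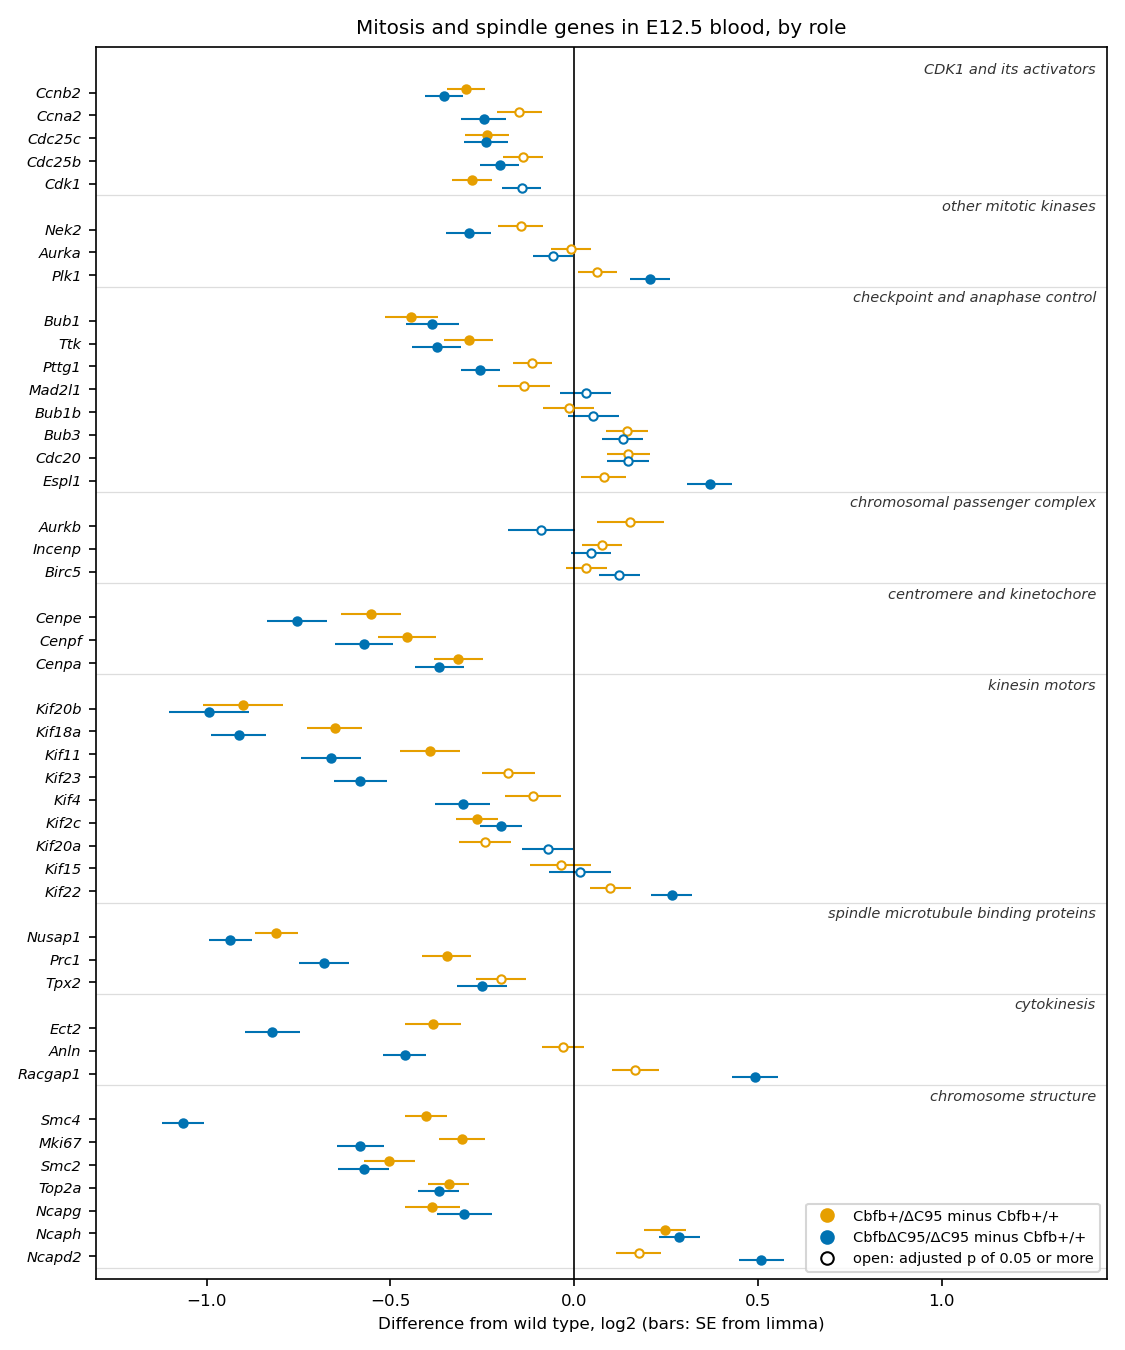
Difference from wild type on the log2 scale for the 44 measured mitosis and spindle genes, by role, in heterozygous (orange) and homozygous (blue) blood on equalized arrays; points are means of 3 arrays minus 3 arrays, bars are SE from limma, and open points did not pass the test. Most points lie left of 0, down to -1.06 for Smc4, and 6 filled blue points, for Plk1, Espl1, Kif22, Racgap1, Ncaph and Ncapd2, lie right of it.

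Late cell cycle promoters are known for a CCAAT box, bound by the factor NF-Y, and for the cell cycle homology region, whose letters are TTTGAA or TTTAAA and which is bound through LIN54. Promoter letters of the mitosis genes were read from RefSeq sequences of assembly GRCm38.p6, in windows from 250 bases before to 50 after the gene start. A window was found for 38 of the 45 genes. Where a gene had several windows, the first one listed was taken, and its other starts were not counted. On either strand, CCAAT stood in 28 of the 38 windows (73.7%), against 38.2% of 14452 genes on the arrays with a window. TTTGAA or TTTAAA stood in 30 (78.9%), against 21.5%. Genes of either direction carried these letters, and no difference between them was tested: TTTGAA or TTTAAA was found in 17 of 23 genes that fell in homozygous blood, in 5 of 6 that rose and in 7 of 8 that did not pass, and CCAAT in 17 of 23, 5 of 6 and 5 of 8. In the 250 bases before the start alone TTTGAA or TTTAAA stood in 52.6% of the 38 windows against 19.7% of genes on the arrays, in 10 of 23 genes that fell, 4 of 6 that rose and 5 of 8 that did not pass. Matches were counted whether or not they overlapped, TTTAAA is its own reverse complement, and Ccnb1, which has a window, is in none of these 3 classes. A match is a description of the sequence and not of binding.

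The 250 bases before the start are shown for 4 genes that fell (Ccnb2, Kif11, Ect2, Nusap1) and 2 that rose (Espl1, Ncapd2), chosen after their values and letters were seen, so that promoters of both directions can be compared. They are Ccnb2 at chr9:70421555-70421804 (minus strand), Kif11 at chr19:37376132-37376381 (plus strand), Ect2 at chr3:27153879-27154128 (minus strand), Nusap1 at chr2:119618048-119618297 (plus strand), Espl1 at chr15:102296043-102296292 (plus strand) and Ncapd2 at chr6:125191587-125191836 (minus strand). They run 5′ to 3′ in the direction of transcription, and capitals mark both kinds of motif, on either strand. Matches after the start are not shown: TTTGAA from base 5 in Ccnb2, and TTTGAA from base 40 and CCAAT from base 2 in Ect2.
Ccnb2: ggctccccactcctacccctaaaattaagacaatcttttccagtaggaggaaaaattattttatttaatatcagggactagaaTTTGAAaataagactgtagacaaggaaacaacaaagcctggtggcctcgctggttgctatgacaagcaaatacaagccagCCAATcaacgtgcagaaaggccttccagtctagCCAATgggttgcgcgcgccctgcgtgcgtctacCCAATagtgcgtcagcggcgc
Kif11: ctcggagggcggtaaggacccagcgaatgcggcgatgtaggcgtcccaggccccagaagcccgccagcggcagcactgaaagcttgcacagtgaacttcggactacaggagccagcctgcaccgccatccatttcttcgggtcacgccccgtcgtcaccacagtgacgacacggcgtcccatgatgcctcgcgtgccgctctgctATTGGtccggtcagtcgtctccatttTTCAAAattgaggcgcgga
Ect2: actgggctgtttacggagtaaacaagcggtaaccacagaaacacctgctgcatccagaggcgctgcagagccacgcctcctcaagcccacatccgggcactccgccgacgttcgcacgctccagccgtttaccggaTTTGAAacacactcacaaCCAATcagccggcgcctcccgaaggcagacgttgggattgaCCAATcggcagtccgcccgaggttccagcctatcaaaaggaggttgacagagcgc
Nusap1: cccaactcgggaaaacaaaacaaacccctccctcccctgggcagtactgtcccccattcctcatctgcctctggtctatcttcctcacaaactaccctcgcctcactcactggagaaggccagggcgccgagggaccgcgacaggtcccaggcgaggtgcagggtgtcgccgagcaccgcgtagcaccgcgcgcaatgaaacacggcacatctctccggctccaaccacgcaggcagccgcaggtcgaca
Espl1: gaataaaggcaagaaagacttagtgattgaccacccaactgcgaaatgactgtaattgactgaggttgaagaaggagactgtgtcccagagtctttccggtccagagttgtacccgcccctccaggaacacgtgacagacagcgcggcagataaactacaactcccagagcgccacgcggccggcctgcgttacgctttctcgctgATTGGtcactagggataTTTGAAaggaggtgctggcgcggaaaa
Ncapd2: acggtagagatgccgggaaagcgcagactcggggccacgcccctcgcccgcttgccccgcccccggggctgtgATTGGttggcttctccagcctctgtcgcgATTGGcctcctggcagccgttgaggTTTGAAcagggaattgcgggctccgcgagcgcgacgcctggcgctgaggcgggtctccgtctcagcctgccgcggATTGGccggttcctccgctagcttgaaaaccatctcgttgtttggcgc
In Ccnb2 the 3 CCAAT boxes are 33 bases apart, start to start. Espl1, which rose, and Kif11, which fell, both have a reversed CCAAT followed by the TTTGAA letters close to the start, but these run forward in Espl1 and reversed in Kif11. Nusap1, one of the largest falls, has none of these letters in the stretch shown.

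Genes of CDK1 and its activators were lower, 4 of 5 measured in homozygous and 3 of 5 in heterozygous blood, all by less than 2-fold. Ccnb2, a B-type cyclin that activates CDK1, was at 9.67, 9.69 and 9.67 in wild-type, 9.36, 9.40 and 9.40 in heterozygous and 9.35, 9.33 and 9.29 in homozygous arrays. All mutant arrays were below all wild-type arrays, and the homozygous difference was -0.35 ± 0.05 (SE; 1.28-fold, adjusted p = 0.000308, limma). Its promoter and that of Ncapd2, which rose, each have 3 CCAAT boxes in the stretch shown. Cdk1, the kinase itself, was lowest in heterozygous blood, at 8.83, 8.81 and 8.77 in wild-type, 8.53, 8.49 and 8.57 in heterozygous and 8.67, 8.65 and 8.67 in homozygous arrays. It fell by 0.28 ± 0.05 on the log2 scale in heterozygous blood (SE, adjusted p = 0.00632, limma), while the homozygous difference of -0.14 did not pass (adjusted p = 0.0872). Ccna2, the A-type cyclin of S phase and mitotic entry, was at 10.62 to 10.64 in wild-type, 10.45 to 10.50 in heterozygous and 10.31 to 10.49 in homozygous arrays, and its homozygous difference of -0.25 passed. A second Ccna2 probe set gave a larger fall, -0.56. The CDC25 phosphatases, which remove the inhibitory phosphates of CDK1, gave -0.20 for Cdc25b and -0.24 for Cdc25c in homozygous blood. The Cdc25b call is lost without wild-type replicate 1 or 2 or homozygous replicate 2 or 3, and that of Cdc25c without wild-type replicate 3. The heterozygous call of Cdc25c, at -0.24, is lost with the replicate block and without wild-type replicate 1 or 3 or any one heterozygous array.

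The other mitotic kinases went different ways. Nek2, a kinase that splits the centrosomes, was at 6.77, 6.85 and 6.76 in wild-type, 6.66, 6.69 and 6.59 in heterozygous and 6.44 to 6.58 in homozygous arrays. Its arrays did not overlap between wild type and either mutant, and the homozygous difference was -0.29 ± 0.06 (SE, adjusted p = 0.00503, limma). It did not pass as the mean of its probe sets or with those ending in _x_at or _s_at left out. Plk1, which promotes mitotic entry and spindle assembly, was higher, at 8.28, 8.35 and 8.29 in wild-type, 8.39, 8.37 and 8.35 in heterozygous and 8.51, 8.49 and 8.54 in homozygous arrays. The homozygous difference of 0.21 (adjusted p = 0.0161, limma) did not pass with reference gene means set equal or without wild-type replicate 1 or 3. Aurka, the centrosomal Aurora kinase, gave -0.057 in homozygous and -0.0076 in heterozygous blood and did not pass.

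Checkpoint and anaphase genes split as well, with 3 of 8 lower and 1 higher in homozygous blood. Bub1, a checkpoint kinase at kinetochores, was at 6.96, 7.14 and 7.11 in wild-type, 6.66, 6.71 and 6.52 in heterozygous and 6.76, 6.61 and 6.68 in homozygous arrays. All mutant arrays were below wild type, and the heterozygous difference was -0.44 ± 0.07 (SE, adjusted p = 0.00228, limma). A dim second Bub1 probe set rose by 0.26 in homozygous blood, and the mean of both did not pass. Ttk, the checkpoint kinase MPS1, was at 6.38 to 6.43 in wild-type, 6.09 to 6.15 in heterozygous and 5.91 to 6.15 in homozygous arrays, a homozygous difference of -0.37 (adjusted p = 0.00128, limma). Its dimmer probe set gave 0.14 and did not pass, nor did the mean of both. The heterozygous call of Ttk is lost without wild-type replicate 1 or 2 or heterozygous replicate 2 or 3.

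Separase and its inhibitor moved in opposite directions. Pttg1, which encodes securin, the inhibitor, was at 12.79, 12.73 and 12.73 in wild-type, 12.63, 12.63 and 12.66 in heterozygous and 12.46 to 12.52 in homozygous arrays. Espl1, which encodes separase, the protease that cuts cohesin, was at 7.19, 7.09 and 7.06, then 7.23, 7.23 and 7.14, then 7.49, 7.54 and 7.42 in the same order. Pttg1 fell by 0.26 ± 0.05 on the log2 scale and Espl1 rose by 0.37 ± 0.06 in homozygous blood (SE; adjusted p = 0.00411 and 0.000875, limma). The heterozygous differences, -0.11 and 0.081, did not pass. A call for Pttg1 was lost when probe sets ending in _x_at or _s_at were left out, and its 2 other probe sets gave -0.11 and -0.093 without passing. The other checkpoint genes, Bub1b, Bub3, Mad2l1 and Cdc20, lay between 0.032 and 0.15 in homozygous blood and did not pass, although the Bub3 and Cdc20 arrays of both mutants were all above wild type.

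None of the chromosomal passenger genes passed the test. Birc5, which encodes survivin, was at 10.18, 10.21 and 10.20 in wild-type arrays, at 10.23 in each heterozygous array, and at 10.41, 10.28 and 10.28 in homozygous arrays. The groups did not overlap, but the heterozygous and homozygous differences of 0.033 and 0.12 did not pass (adjusted p = 0.835 and 0.162, limma). Aurkb, the kinase of the complex, varied more between arrays, from 6.24 to 6.55 in homozygous and from 6.54 to 6.82 in heterozygous blood, and both overlapped with wild type. Incenp, its scaffold, gave 0.076 in heterozygous and 0.045 in homozygous blood.

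Centromere and kinetochore genes fell in both genotypes, 3 of 3. Cenpe, a kinesin that carries chromosomes to the spindle equator, was at 6.63, 6.53 and 6.54 in wild-type, 6.17, 5.87 and 6.00 in heterozygous and 5.79, 5.72 and 5.93 in homozygous arrays. All mutant arrays were below all wild-type arrays, and the difference was -0.75 ± 0.08 in homozygous and -0.55 ± 0.08 in heterozygous blood (SE; adjusted p = 2.53e-05 and 0.0012, limma). The other Cenpe probe set, at 2.04 in wild-type arrays, gave -0.10 and -0.089 and did not pass. Cenpf, a large kinetochore and nuclear matrix protein gene, was at 7.53, 7.58 and 7.51, then 7.14, 7.14 and 6.97, then 7.06, 6.80 and 7.04 in the same order, with heterozygous and homozygous differences of -0.46 and -0.57. The heterozygous call of Cenpf is lost as the mean of its probe sets. Cenpa, the histone H3 variant of centromeres, was at 9.54, 9.65 and 9.72 in wild-type, 9.36, 9.27 and 9.33 in heterozygous and 9.36, 9.25 and 9.20 in homozygous arrays. Its probe sets disagreed: the brightest fell by 0.37 on the log2 scale in homozygous blood, but another, at 4.93 in wild-type arrays, rose by 0.58, and their mean gave 0.068 and did not pass. The heterozygous call of Cenpa is lost without wild-type replicate 3 or heterozygous replicate 2.

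Among the kinesin motors 6 of 9 fell and 1 rose in homozygous blood, and 4 fell in heterozygous blood. Kif18a, which dampens chromosome movements at the spindle equator, was at 6.36, 6.53 and 6.40 in wild-type, 5.78, 5.88 and 5.67 in heterozygous and 5.41, 5.56 and 5.58 in homozygous arrays. The 3 genotypes did not overlap, with differences from wild type of -0.65 and -0.91 ± 0.08 (SE; 1.88-fold in homozygous blood, adjusted p = 2.89e-06, limma). Homozygous differed from heterozygous blood by -0.26 (adjusted p = 0.0434, limma). The other Kif18a probe set, at 1.97 in wild-type arrays, gave -0.11 in heterozygous and -0.0090 in homozygous blood. Between the mutants it gave 0.11, and it passed in no comparison. Kif11, the motor that pushes spindle poles apart, was at 6.02, 6.12 and 5.91, then 5.46, 5.74 and 5.68, then 5.42, 5.32 and 5.33 in the same order. Its homozygous difference was -0.66, and its other probe sets fell too, at -0.48 and -0.32. The heterozygous call for Kif11 is lost without wild-type replicate 2. Kif20b, a motor of late cytokinesis, was read at low values, 4.67, 4.88 and 4.68 in wild-type, 3.96, 3.93 and 3.63 in heterozygous and 3.69, 3.96 and 3.61 in homozygous arrays. Both mutants lay below wild type and overlapped each other, at differences of -0.90 and -0.99, and without scanner files the signal over background is not known.

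The remaining kinesins changed less. Kif23 and Kif4, motors of the central spindle, gave -0.58 and -0.30 in homozygous blood, and the centromere depolymerase Kif2c gave -0.20. The Kif2c call is lost under several settings, among them leaving out any wild-type replicate or homozygous replicate 2, and that of Kif4 without wild-type replicate 3. Kif22, a chromosome-arm motor, rose, from 9.95, 9.93 and 9.94 in wild-type over 10.03, 10.03 and 10.06 in heterozygous to 10.28, 10.18 and 10.17 in homozygous arrays. The 3 groups did not overlap, and the homozygous difference of 0.27 passed (adjusted p = 0.00403, limma), except with probe sets ending in _x_at or _s_at left out. Kif15 and Kif20a did not pass in either genotype.

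All 3 spindle microtubule-binding proteins fell in homozygous and 2 of 3 in heterozygous blood. Nusap1, which bundles spindle microtubules around chromosomes, was at 9.97, 9.98 and 9.94 in wild-type, 9.14, 9.18 and 9.13 in heterozygous and 9.12, 9.01 and 8.96 in homozygous arrays. The gap to wild type was far wider than the spread of any group, at -0.81 ± 0.06 in heterozygous and -0.94 ± 0.06 in homozygous blood (SE; 1.75-fold and 1.91-fold, adjusted p = 1.3e-05 and 3.25e-07, limma). Homozygous and heterozygous blood differed by -0.13, which did not pass. Its other probe set, at 2.83 in wild-type arrays, gave -0.012. Prc1, which crosslinks the antiparallel microtubules of the central spindle, stepped down with allele copies, at 8.08, 7.98 and 7.94, then 7.65 in each heterozygous array, then 7.43, 7.32 and 7.21. Here homozygous differed from heterozygous blood by -0.33 (adjusted p = 0.00623, limma), and its other probe set fell alike, at -0.70 in homozygous and -0.40 in heterozygous against wild-type blood. Tpx2, an activator of Aurora A, was at 7.88 to 7.95 in wild-type, 7.65 to 7.80 in heterozygous and 7.58 to 7.77 in homozygous arrays. Its homozygous difference of -0.25 passed, but not without wild-type replicate 1 or 3 or homozygous replicate 2 or 3.

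Cytokinesis genes differed between homozygous and heterozygous blood in all 3 cases by their brightest probe sets. In that comparison the other probe sets gave -0.00093 for Anln and 0.077 and 0.049 for Racgap1, and none passed. Ect2, the exchange factor that activates RhoA at the division plane, was at 6.41, 6.36 and 6.34 in wild-type, 6.01, 5.97 and 5.98 in heterozygous and 5.48, 5.43 and 5.73 in homozygous arrays. The groups did not overlap, and the differences from wild type were -0.38 and -0.82 ± 0.08 (SE; 1.77-fold in homozygous blood, adjusted p = 6.79e-06, limma). Anln, which encodes the contractile ring scaffold anillin, was at 6.82, 6.81 and 6.81, then 6.76, 6.82 and 6.76, then 6.42, 6.27 and 6.37 in the same order. Heterozygous arrays overlapped wild type at -0.030, whereas the homozygous arrays were all below the heterozygous ones (-0.43 ± 0.06, SE; limma adjusted p = 0.000358).

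Racgap1 rose. It encodes the partner of the kinesin KIF23 in centralspindlin, the complex that recruits ECT2 to the central spindle. Its arrays were at 7.57, 7.61 and 7.68 in wild-type, 7.81, 7.79 and 7.76 in heterozygous and 8.22, 8.05 and 8.07 in homozygous blood, while those of Kif23 were at 6.85, 6.90 and 6.89, then 6.80, 6.67 and 6.63, then 6.41, 6.32 and 6.17. For neither gene did any 2 genotypes overlap, but the heterozygous differences of 0.17 and -0.18 did not pass (adjusted p = 0.157 and 0.184, limma). In homozygous blood Racgap1 rose by 0.49 ± 0.06 and Kif23 fell by 0.58 ± 0.07 on the log2 scale (SE; adjusted p = 0.000105 and 7.13e-05, limma). The other probe sets of Racgap1 gave 0.12 and 0.069 and did not pass, and of those of Kif23 one fell by 0.44 and one gave 0.14. That last Kif23 probe set, at 2.72 in wild-type arrays, was called higher in heterozygous blood, by 0.22 (adjusted p = 0.0301, limma).

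**Figure D2:**
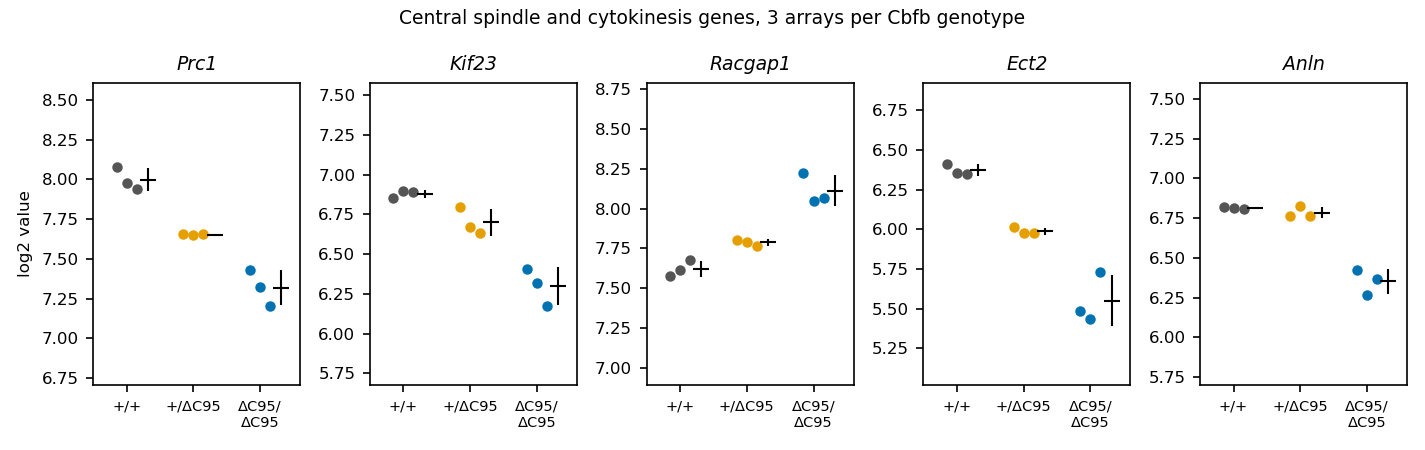
Log2 array values of 5 central spindle and cytokinesis genes by Cbfb genotype; coloured points are the 3 arrays of a genotype and black marks are mean ± SD, with the same axis span in each panel. Prc1, Kif23, Ect2 and Anln are lowest in homozygous arrays and Racgap1 is highest there, at 8.05 to 8.22 against 7.57 to 7.68 in wild type.

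Chromosome structure genes all passed the test in homozygous blood, 5 lower and 2 higher, and the condensin genes fell on both sides. Condensin is a ring of the ATPases SMC2 and SMC4 closed by a kleisin, NCAPH, with NCAPD2 and NCAPG bound to it. Smc4 was at 8.86, 8.83 and 8.96 in wild-type, at 8.48 in each heterozygous array, and at 7.82, 7.85 and 7.79 in homozygous arrays. It stepped down with each copy of the allele by more than the spread of any group, and its homozygous difference was -1.06 ± 0.06 (SE; 2.09-fold, adjusted p = 9.47e-08, limma). The step from heterozygous to homozygous blood was -0.66 (adjusted p = 1.1e-05). Its other probe sets gave -1.03 and -0.91 in homozygous blood.

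Smc2 was at 7.84, 7.92 and 8.00 in wild-type, 7.47, 7.42 and 7.35 in heterozygous and 7.42, 7.38 and 7.23 in homozygous arrays. Both mutants were below wild type and overlapped each other, at -0.50 and -0.57, but the 4 other, dimmer probe sets of Smc2 gave -0.19 to 0.10 and did not pass. The heterozygous Smc2 call is lost as the mean of its probe sets. Ncapg behaved alike by its main probe set, with -0.39 in heterozygous and -0.30 in homozygous blood, and the homozygous call is lost without wild-type replicate 3. The other non-SMC subunits went up. Ncapd2 was at 7.74, 7.81 and 7.76 in wild-type, 7.96, 7.98 and 7.90 in heterozygous and 8.38, 8.23 and 8.23 in homozygous arrays, and Ncaph was at 7.58, 7.61 and 7.67, then 7.82, 7.93 and 7.86, then 7.89, 7.92 and 7.92. All mutant arrays were above wild type. The homozygous differences were 0.51 ± 0.06 for Ncapd2 and 0.29 ± 0.06 for Ncaph (SE; adjusted p = 6.29e-05 and 0.00275, limma), and Ncaph also rose in heterozygous blood, by 0.25 (adjusted p = 0.0163). The other Ncapd2 probe set, at 4.76 in wild-type arrays, gave 0.075 in homozygous blood and did not pass. With probe sets ending in _x_at or _s_at left out neither Ncaph call passed. The heterozygous call is also lost with reference gene means set equal and without wild-type replicate 1 or 2 or heterozygous replicate 2.

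**Figure D3:**
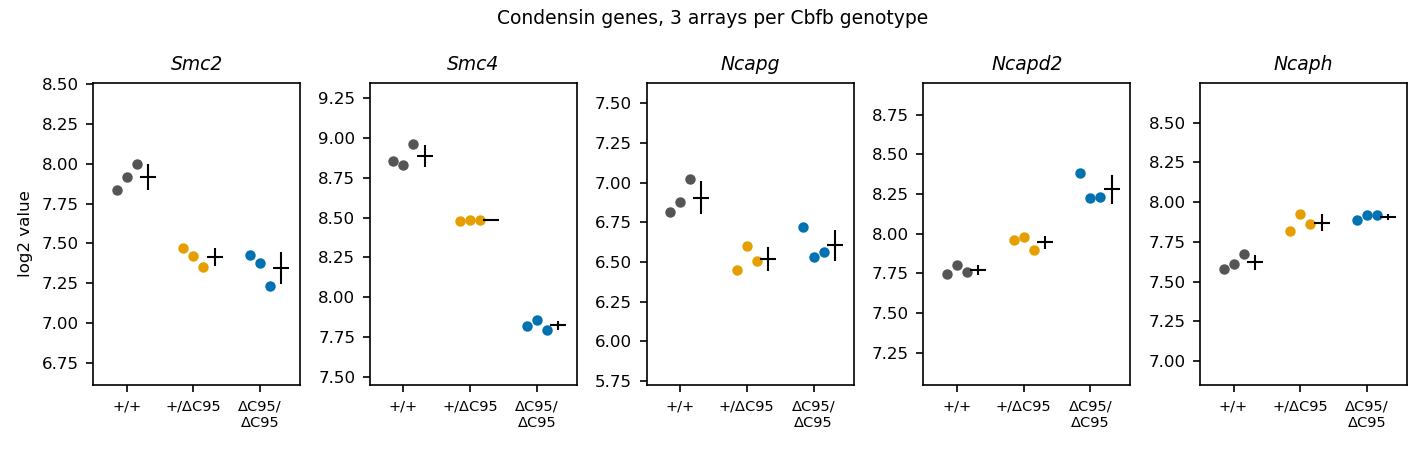
Log2 array values of the 5 condensin genes by Cbfb genotype; coloured points are the 3 arrays of a genotype and black marks are mean ± SD, with the same axis span in each panel. Smc2, Smc4 and Ncapg are below wild type in all mutant arrays and Ncapd2 and Ncaph above it, with Smc4 at 7.79 to 7.85 in homozygous against 8.83 to 8.96 in wild-type arrays.

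Top2a, the topoisomerase that untangles sister chromosomes, gave -0.37 in homozygous and -0.34 in heterozygous blood, while a dimmer probe set of it rose by 0.20 in homozygous blood, and neither call passed as the mean of its probe sets. Mki67, which encodes the proliferation marker that coats mitotic chromosomes, was at 9.74, 9.77 and 9.76 in wild-type, 9.45, 9.45 and 9.46 in heterozygous and 9.29, 9.14 and 9.09 in homozygous arrays. The 3 genotypes did not overlap, and Mki67 fell by 0.58 ± 0.06 on the log2 scale in homozygous and by 0.30 in heterozygous blood (SE, adjusted p = 2.5e-05 and 0.00917, limma).

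Between homozygous and heterozygous blood 7 of the 44 genes were lower and 3 higher, where 10.4% of all genes were lower and 5.38% higher, or 15.8% in either direction. The homozygous arrays lay wholly below the heterozygous ones for 12 genes and wholly above for 9, against 15.4% and 15.7% of all genes. The lower genes were Kif18a, Kif23, Prc1, Ect2, Anln, Smc4 and Mki67, and the higher genes were Espl1, Racgap1 and Ncapd2. Each had the same direction in homozygous against wild-type blood. Cdk1, Nusap1 and Kif20b were lower in heterozygous blood than the midpoint of the other genotypes, by log2 differences of -0.21, -0.34 and -0.40 (limma, adjusted p = 0.0296, 0.00258 and 0.0372), 3 of 44 genes where 1.53% of all genes were lower, 3.64% higher and 5.18% either. For Cdk1 this was because the heterozygous mean lay below both others, and for Nusap1 and Kif20b because it lay near the homozygous mean. This count went from 1 to 4 as single arrays were left out, falling to 1 without wild-type replicate 2 or 3 or any one heterozygous array.

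Probe sets other than the brightest were dimmer and mostly did not pass. Of 46 such probe sets for genes called in homozygous blood, 7 were called in the same direction, 3 in the opposite one and 36 did not pass. The same direction was found for Ccna2, Kif11, Kif23, Prc1 and Smc4, and the opposite one for Bub1, Cenpa and Top2a. The direction for those 3 genes thus depends on the probe set.

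**Figure D4:**
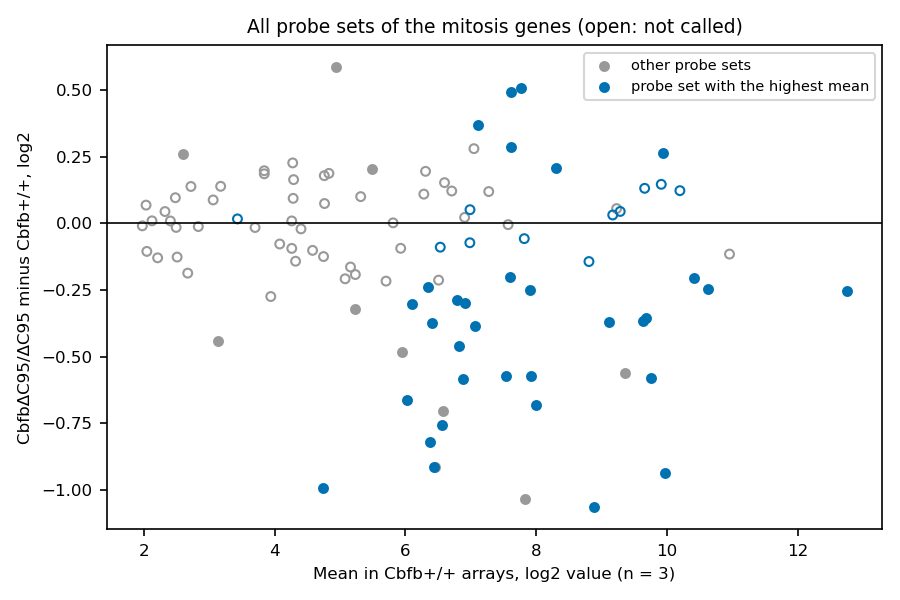
Homozygous minus wild-type difference, on the log2 scale, of every probe set of the mitosis genes against its mean in the 3 wild-type arrays; blue points are the brightest probe set of a gene, grey points its other probe sets, and open points did not pass the test. Filled grey points lie on both sides of 0, at -1.03 for Smc4 and 0.58 for Cenpa.

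Other genes of mitosis, listed by role, were lower in 47 of 107 and higher in 14 in homozygous, and lower in 27 and higher in 5 in heterozygous blood. Over all genes 14.9% were lower and 10.7% higher in homozygous, and 7.04% lower and 4.79% higher in heterozygous blood. The rises of the 107 were near these shares. Their median differences of -0.071 and -0.097 were nearer to 0 than the -0.25 and -0.19 of the 44 genes. Kinetochore genes fell in 16 of 30 measured and rose in 2 in homozygous blood. Spdl1, which brings dynein to kinetochores, gave -1.04, Sgo2a, a protector of centromeric cohesin, -0.92, and Ndc80, which binds the microtubule, -0.91. Spindle and centrosome genes fell in 14 of 27 and rose in 2, led by Aspm, a spindle pole protein gene, at -1.28, by Plk4, the kinase of centriole duplication, at -1.03, and by Hmmr at -0.90. Of 17 cohesin and further condensin genes 8 fell and 2 rose. The cohesin release factor gene Wapl was at -1.10, the cohesin acetyltransferase gene Esco1 at -1.08, and the cohesin subunit gene Stag2 at -0.77.

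The anaphase promoting complex, the ubiquitin ligase that ends mitosis, was mixed, with 7 of 16 lower and 4 higher in homozygous blood. Its subunit gene Anapc10 was at -0.67 and Anapc1 at 0.45, and Fbxo5, an inhibitor of the complex, was at -0.53. Regulators of mitotic entry and of late cell cycle transcription were lower in 2 of 17 and higher in 4. Lin54, whose protein is known to bind the cell cycle homology region, was at -0.80, and Mybl2, its partner in activation, at 0.66. Binding at the promoters shown was not measured. Pkmyt1, an inhibitory kinase of CDK1, was at 0.50. For comparison, replication licensing genes, which act before mitosis, were higher in 8 of 23 and lower in 2 in homozygous and higher in 9 and lower in 2 in heterozygous blood. All genes were lower in 14.9% and higher in 10.7% in homozygous, and lower in 7.04% and higher in 4.79% in heterozygous blood. The 2 of 17 regulators that fell were near that share. The difference between these lists was not tested.

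**Figure D5:**
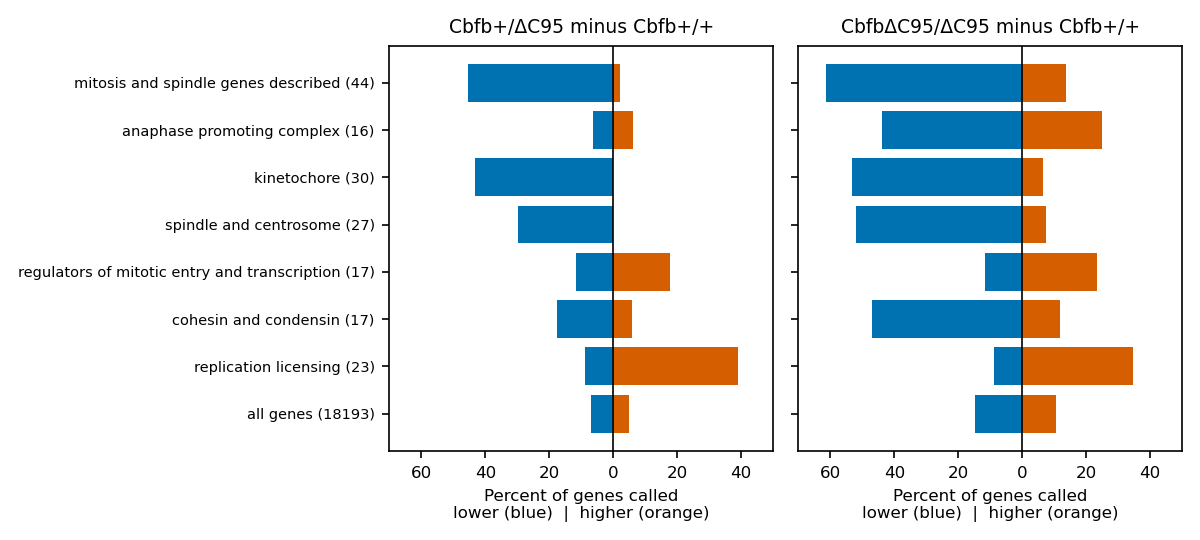
Percent of genes called lower (blue, left) and higher (orange, right) by limma in heterozygous and homozygous against wild-type blood, for the mitosis and spindle genes, the lists of other mitosis genes, replication licensing and all genes, with the number measured in brackets. The bars of the mitosis genes reach 20 of 44 lower and 27 of 44 lower, beside 7.04% and 14.9% of all genes.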

How the data were processed

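Total RNA of pooled embryonic peripheral blood was labelled and hybridized to 9 Affymetrix mouse arrays, 3 per genotype, taken from the sample titles. The deposited values, made by the authors, lie between 1.49 and 14.56 and were read as log2, the scale RMA gives; no label states it. Per the submitters' processing notes, the tools were RMA, Partek 6.5 and Affymetrix Expression Console 1.0, with no roles given. RMA equalizes the arrays, so a uniform difference in RNA content is removed. No scanner file was used here, and how far a signal stood above background is not known.

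The 64 control probe sets were left out of the tests, leaving 45037, of which 34945 had 1 gene symbol, 932 several and 9160 none in the platform annotation. Genotype means were fitted over the 9 arrays together (limma 3.58.1, R 4.3.3), with 2-sided tests and Benjamini-Hochberg adjustment over the 45037 probe sets. It was checked on simulated arrays. The members, lists and tests were chosen with earlier results of these data known. By rule, the genes named per role are up to 3 called members with the largest difference from wild type in either mutant. In a role with no call they are the 2 members with the largest difference. Every member called opposite to most of the called members, and the member with the highest mean of all, are named too. Other members are named outside the rule, after their values were seen. Of each other list up to 3 called genes are named. Figures were drawn with matplotlib 3.10.9. The alternatives were the groups fitted, the replicate block, filters, variance priors, array weights, normalizations, scalings, probe set choices, a threshold of 0.01 and leaving out each array. The medians were added to these after the data were seen.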

Additional observations from a re-analysis of the deposited data

Results flagged for a closer look

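The poly-A spike-ins, which are control probe sets outside the comparisons, were above the level of the wild-type arrays. Their mean of 24 probe sets was higher by 1.58 on the log2 scale in homozygous and by 0.88 in heterozygous arrays. These shifts exceed the difference of every mitosis gene that rose.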

How the results depend on the processing

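The counts of called mitosis genes against wild type stayed within 1.5 times of 33 (homozygous) and 21 (heterozygous) under every alternative except the second brightest probe set, which left 8 and 4 called of 32 genes that have one (26 and 17 of the same genes by the brightest). It also left 6 in the comparison of the mutants, none against the midpoint, 25, 15 and 14 other mitosis genes (homozygous, heterozygous, between mutants), and medians of -0.0067, -0.087 and 0.051. Under it the difference turned in homozygous blood for Bub1 (0.26), Ttk (0.14), Cenpa (0.58), Kif20b (0.0093) and Smc2 (0.0094), in heterozygous blood for Bub1 (0.18), Cenpa (0.0042) and Smc2 (0.059), and between the mutants for Cenpa (0.58) and Kif18a (0.11). The mean of a gene's probe sets turned Cenpa (0.068) and gave medians of -0.13, -0.14 and 0.025. The causes were not tested. Leaving out 1 array gave 27 to 33, 17 to 22 and 9 to 10 called members, 56 to 63, 22 to 35 and 26 to 37 other genes, 1 to 4 against the midpoint, and medians of -0.30 to -0.24, -0.20 to -0.17 and -0.067 to -0.018. Reference gene means set equal moved the median of all genes from 0.0085 to -0.16 in heterozygous blood and from 0.028 to 0.14 between the mutants. The member medians were then -0.32, -0.36 and 0.057, with 30 members against the midpoint, 66 other genes in heterozygous blood, and 0 higher and 31 lower members there. Between the mutants 9 members were then higher and 5 lower. Quantile normalization gave 8 and 6 there, 4 and 20 in heterozygous blood, a homozygous median of -0.20 and 7 members against the midpoint. An intensity trend gave 16 members between the mutants and 11 against the midpoint. That last count was 7 without the 40% dimmest probe sets, 6 adjusted over 1 probe set a gene, and 5 with array weights or cyclic loess. At 0.01 it was 1, with 19 other genes in heterozygous blood and 25 between the mutants. With the replicate number as a block, 33, 20 and 10 members and 61, 29 and 35 other genes were called, and 2 against the midpoint. Same-numbered arrays deviated from their groups at r = -0.0231 to 0.0695. Of 18 array and group pairs, 9 correlated best with their own number. Whether same-numbered arrays share more than a number is not decided by this, because deviations within so few arrays depend on each other. The 250 bases before the start alone held TTTGAA or TTTAAA in 52.6% of members. The midpoint could not be fitted with only 2 groups. The number of arrays limits all counts, and signal over background is not known.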
